A study of Homo sapiens with 47 samples.

Results

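The respiratory chain of a human cell is built from 2 genomes, and its genes were followed here in single circulating tumor cells (CTCs) and in the same cell line grown in culture. All 25 rows of the mitochondrial genome were taken, which are 13 mRNAs, 2 rRNAs and 10 tRNAs. To these were added the 82 protein-coding nuclear genes named as subunits of complexes I to V (symbols NDUFA, NDUFB, NDUFC, NDUFS or NDUFV with a number, SDHA to SDHD, UQCR, CYC1, COX4 to COX8 and ATP5), which gives 107 members of 25739 rows. Complex I is represented by 7 mitochondrial mRNAs and 36 nuclear genes, complex II by 4 nuclear genes only, complex III by MT-CYB and 10 nuclear genes, complex IV by 3 mitochondrial mRNAs and 13 nuclear genes, and complex V by 2 mitochondrial mRNAs and 19 nuclear genes. The NDUFA4 gene carries a complex I name but was counted with complex IV, where its protein is now placed.

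The CTCs came from 5 NOD/SCID gamma (NSG) mice that carried a mammary fat pad tumor of LM2-GFP cells, a metastatic, GFP-labelled derivative of the human triple-negative breast cancer (TNBC) line MDA-MB-231, with no other treatment. Blood was passed through a size-based microfluidic device, cells were stained for the leukocyte marker CD45 as negative selection, and GFP-positive cells were picked singly with the needle of an imaging instrument. Of 41 labelled CTCs, 37 have values (2 from mouse 5541, 4 from 5542, 10 from 5545, 17 from 5546 and 4 from 5549), since the authors had dropped CTCs in which too few reads mapped uniquely or too many were mitochondrial. The comparison group is 6 LM2 cells from tissue culture. The labels do not say whether they came from separate cultures, so they were treated as 1 sample. In LM-2, LM-3 and LM-10 7369 to 8467 genes were detected and in LM-1, LM-P3 and LM-P4 11912 to 13679, with mitochondrial mRNA shares of 3.16% to 4.08% and 2.79% to 2.95%. NSG mice lack mature lymphocytes but keep myeloid cells, and all tumor cells derive from 1 line. Each cell gave 1 SMARTseq2 library made with oligo-dT priming, with 469614 to 2041333 reads on genes per CTC and 776949 to 1186197 per cultured cell. Cells of a mouse are not replicates, so the mouse is the unit for CTCs (n = 5), and the culture is taken as 1 sample. With 5 mice against 1 culture an exact permutation test cannot give a p below 0.167, so shares are reported without a test.

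Complexes I, III and IV pass electrons to oxygen and pump protons across the inner mitochondrial membrane, complex II feeds electrons in from succinate, and complex V (ATP synthase) uses the proton gradient to make ATP. The mitochondrial genome encodes core membrane subunits of complexes I, III, IV and V, and is read from both strands as long transcripts that are cut into single mRNAs, rRNAs and tRNAs. The nuclear genome encodes every other subunit, all of complex II, and the proteins that copy, transcribe and translate the mitochondrial genome. An assembled complex thus needs products of both genomes.

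The compact layout of the mitochondrial genome bears on how its reads can be counted, and the sequences that show this are given here from GRCh38. The genes MT-ATP8 (chrM:8366-8572) and MT-ATP6 (chrM:8527-9207), both of complex V, overlap on 1 transcript, and MT-ND4L (chrM:10470-10766) overlaps MT-ND4 (chrM:10760-12137) in the same way. The stretches chrM:8515-8584 and chrM:10745-10781 on the plus strand show both overlaps, with the bases that belong to both genes in capitals.
MT-ATP8/MT-ATP6: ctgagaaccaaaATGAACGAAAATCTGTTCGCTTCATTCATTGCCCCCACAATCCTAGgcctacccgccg
MT-ND4L/MT-ND4: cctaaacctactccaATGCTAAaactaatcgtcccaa
Reads that fall on an overlap cannot be assigned to a single gene, and MT-ND6 (chrM:14149-14673) is read from the opposite strand to MT-ND5 next to it (chrM:12337-14148), which counting without strand cannot separate where their reads meet.

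Old insertions of mitochondrial DNA in the nuclear chromosomes (nuclear copies) also matter, because only uniquely mapped reads had been kept. The copy most like MT-CO1 is the pseudogene MTCO1P12 on chromosome 1, with 98.6% identity over 1543 aligned bases. The opening 150 bases of both are shown from the plus strands of chrM:5904-6053 and chr1:631074-631223, with the single base that differs in capitals.
MT-CO1: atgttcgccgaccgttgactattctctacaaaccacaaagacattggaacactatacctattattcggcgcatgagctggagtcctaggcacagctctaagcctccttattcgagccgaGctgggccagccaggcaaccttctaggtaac
MTCO1P12: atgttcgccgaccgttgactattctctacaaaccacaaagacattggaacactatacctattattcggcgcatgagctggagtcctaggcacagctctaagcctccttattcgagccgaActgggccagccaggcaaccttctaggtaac
Of all windows of 75 bases, the share with an exact copy on chromosomes 1 to 22, X or Y was 36.6% in MT-CO1, 34.4% in MT-ND2, 28.4% in MT-RNR1 and 28% in MT-ATP6. It was 17.1% in MT-ND1, 14.9% in MT-CO3 and 10.5% in MT-CO2. It was 7.1% in MT-ND6, 3.4% in MT-RNR2 and 0.2% in MT-ND5, and 0% in MT-ATP8, MT-ND3, MT-ND4L, MT-ND4 and MT-CYB. A read from such a window has more than 1 place in the genome and would not be counted, so the levels of these genes can be too low.

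The mitochondrial genome took a larger part of the reads in CTCs than in culture, whereas the nuclear respiratory chain genes took about the same part. All mitochondrial rows together held 8.13% ± 1.94 of the reads (SD, n = 5 mice) against 4.69% in culture, which is 1.73-fold. The 5 mouse means were 7.72% (mouse 5541), 6.15% (5542), 6.56% (5545), 10.7% (5546) and 9.52% (5549), and all were above the highest cultured cell, at 5.74%. The cultured cells ranged from 4.05% to 5.74%, and 29 of 37 CTCs lay above all 6 of them and none below. The lowest CTC was 5546-c4 at 4.28% and the highest 5546-s7 at 23.9%.

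The 13 mRNAs and the rRNAs were both higher in the means of all 5 mice. The mRNAs held 5.07% ± 0.76 of reads in CTCs (SD, n = 5) and 3.19% in culture, 1.59-fold, and the mouse means ran from 4.2% to 5.76%. The mRNA share of single CTCs ran from 2.16% to 13.7%, with 24 of 37 above every cultured cell and 4 below, the latter all from mouse 5546. The rRNAs, which form the 2 subunits of the mitochondrial ribosome, held 3.06% ± 1.26 in CTCs and 1.5% in culture, 2.04-fold. The ratio of rRNA to mRNA reads was 0.50 (5541), 0.49 (5542), 0.55 (5545), 0.90 (5546) and 0.66 (5549) against 0.41 to 0.52 in cultured cells, so that 2 mice lay inside the cultured range, and the difference between the folds was not tested. Their share was above every cultured cell in 34 of 37 CTCs, and the mouse means were 1.94% (5542), 2.24% (5545), 2.4% (5541), 3.77% (5549) and 4.92% (5546). Within mouse 5546 the rRNA share ran from 1.63% to 12.5%, and the CTCs of mouse 5549 (2.26% to 5.09%) lay inside that range. The tRNA rows were near 0, with a highest mean of 1.76 normalized reads, and are not discussed further.

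The 82 nuclear genes together held 2.19% ± 0.32 of reads in CTCs (SD, n = 5) and 2.04% in culture, where the cells ranged from 1.93% to 2.29%. The mouse means were 1.92% (5546), 1.93% (5541), 2.05% (5549), 2.41% (5542) and 2.63% (5545), so that 2 of 5 lay below the culture mean and 3 above. The difference from culture was within the spread between mice. Single CTCs varied far more than cultured cells, from 0.667% in CTC 5549-6 to 3.53% in CTC 5545-12, with 13 of 37 above and 11 of 37 below all cultured cells. The ratio of mitochondrial mRNA to nuclear reads, which does not depend on the total of the cell, was 2.65 ± 0.91 over mice and 1.57 in culture. Its mouse mean was close to culture in 5545 (1.67) and 5542 (1.73) and higher in 5541 (2.92), 5546 (3.26) and 5549 (3.68). The medians of the cells in 5546 and 5549 were lower than these means, at 2.42 and 2.69. The median of all 37 CTCs was 1.87, with 16 above and 6 below every cultured cell. Within each mouse the CTCs overlapped the cultured cells, of which the highest had 1.98. The highest ratios were 10.6 in CTC 5546-c10, 8.34 in CTC 5546-s7 and 7.47 in CTC 5549-6, of which the last combined a mitochondrial mRNA share of 4.98% with the lowest nuclear share of all.

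**Figure D1:**
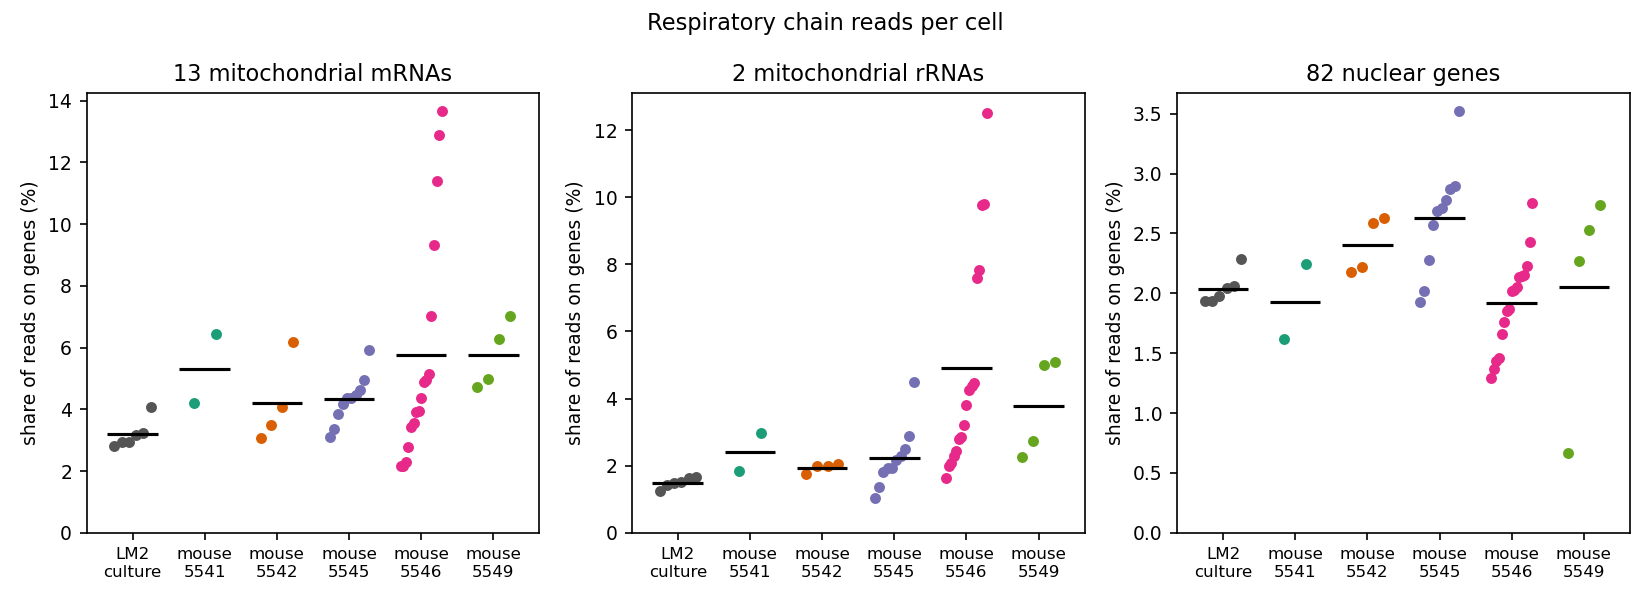
Share of reads on genes (%) taken by the 13 mitochondrial mRNAs, the 2 mitochondrial rRNAs and the 82 nuclear respiratory chain genes. Each point is 1 cell, black lines are group means, and the axes differ between panels. The rRNA share lay above all 6 cultured cells in 34 of 37 CTCs, while the nuclear share spread to both sides of the culture.

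Reads on human blood cell marker genes were counted beside these shares, as the CTCs came from blood. The blood was that of the mouse host, and reads had been aligned to the human genome only. Whether reads on these markers, on mitochondrial rows or on nuclear copies came from mouse RNA was not tested. Of 10 erythroid markers, 7 had a row, and their summed level was 0 in all cultured cells, against a range from 0 to 15899 CPM (reads scaled to a common library total) in CTCs. The globin genes HBB, HBD and HBA2 were detected in 35, 34 and 29 of 37 CTCs, and ALAS2 in 20. The erythroid markers SLC4A1, AHSP and CA1 were detected in 2, 5 and 2. The mouse means of the erythroid list were 127 (5541), 373 (5545), 2294 (5542), 3437 (5546) and 4956 (5549) CPM. Of 14 leukocyte markers 10 had a row, with a summed level of 0 to 919 CPM in CTCs and 0 to 11.6 in culture. PTPRC, the gene of CD45, was found in 11 of 37 CTCs, S100A9 in 30, and TYROBP and CD68 in 21 each. LYZ, CD14 and CSF3R were found in 12, 11 and 10, and CD79A, NKG7 and FCGR3B in 1, 1 and 2. In culture PTPRC, S100A9 and TYROBP were detected in 0 of 6 cells and CD68 in 4. Of 6 platelet markers 5 had a row, with 0 to 95.6 CPM in CTCs and 0 to 2.54 in culture. All 10 markers of the LM2 line had a row, and VIM, CD44, AXL, CAV1, KRT8, KRT18 and LGALS1 were detected in 37 of 37 CTCs, while MMP1 was detected in 5. Erythroid level and mitochondrial share had ρ = 0.2 over the 37 CTCs, and erythroid level and nuclear share had ρ = -0.48, as a description of cells that share mice. Within mouse 5545 the latter was 0.61 and within mouse 5546 it was -0.33, so its sign differed between mice. The part of blood cell RNA in the shares was not tested. Among the 14 CTCs with at most 1000 erythroid CPM, from 4 mice, the mitochondrial share was 7.67% ± 1.03 against 4.69% in culture. Their mRNA share was 5.15% ± 0.85 against 3.19%, and their nuclear share 2.47% ± 0.36 against 2.04%. Mouse 5549 entered with CTC 5549-3 alone, and these cells still held up to 762 erythroid CPM (5546-s6).

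Across CTCs the 2 genomes did not follow each other. The mRNA share of the mitochondrial genome and the share of the nuclear genes had a Spearman's ρ of 0.01 over 37 CTCs, 0.44 over the 10 CTCs of mouse 5545 and 0.01 over the 17 CTCs of mouse 5546. The rRNA share and the nuclear share had ρ = -0.41 over all CTCs, -0.03 in mouse 5545 and -0.26 in mouse 5546. Each pair shares its total, library and mouse, so these values are descriptions. By contrast, rRNA and mRNA shares of the mitochondrial genome had ρ = 0.42 over all CTCs and 0.73 in mouse 5546, but -0.1 in mouse 5545. The nuclear share went with the share of the 78 mitochondrial ribosomal proteins, which are nuclear-encoded (ρ = 0.65 over all CTCs, 0.70 in mouse 5545 and 0.42 in mouse 5546), and it had a lower value with the 85 cytosolic ribosomal proteins (ρ = 0.35).

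**Figure D2:**
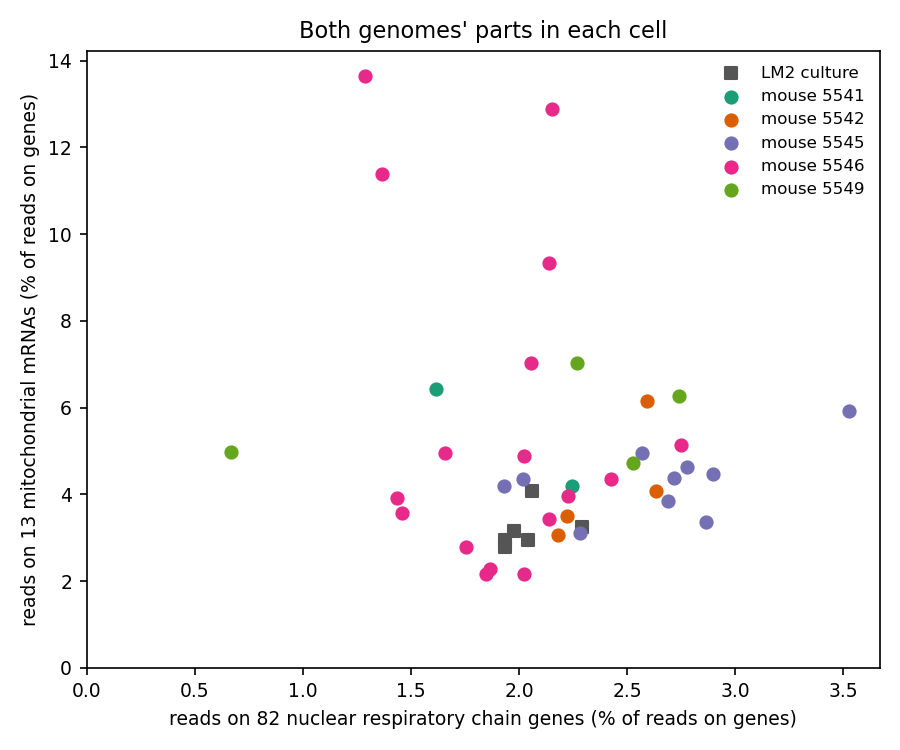
Reads on the 13 mitochondrial mRNAs against reads on the 82 nuclear respiratory chain genes, both in % of reads on genes, with 1 point per cell coloured by mouse (circles) or culture (squares). The 3 CTCs with the highest mitochondrial mRNA share belong to mouse 5546, and the points show no common trend (ρ = 0.01 over 37 CTCs).

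The same contrast was seen gene by gene. Of the 78 pairs among the 13 mitochondrial mRNAs, 96.2% had ρ above 0, with a median of 0.62. The highest values joined MT-ATP6 with MT-ND4 (0.89) and MT-ND5 with MT-ND6 (0.84), 2 neighbours on opposite strands. Reads were counted without strand, and whether reads on the MT-ND6 row came from MT-ND5 transcripts was not tested. The 77 nuclear members detected in at least 30 CTCs gave 2926 pairs with a median ρ of 0.15. The median was 0.12 within complex I, 0.22 within complex III, 0.25 within complex IV and 0.19 within complex V. Pairs that joined the genomes had a median of -0.03 over 1001 pairs, and sharing a complex made little difference, with medians of -0.03 in complex I, 0.05 in complex IV and -0.02 in complex V. The members whose level went most with the rest of the nuclear group were ATP5MF (ρ = 0.82) and ATP5PF (0.65), both small subunits of ATP synthase, NDUFB2 (0.69), an accessory subunit of complex I, and UQCRQ (0.65), a small subunit of complex III. Those that went least with it were NDUFS1 (-0.15), SDHD (-0.14) and SDHA (-0.1). Many of these genes are detected at modest depth, so weak values of ρ carry little.

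**Figure D3:**
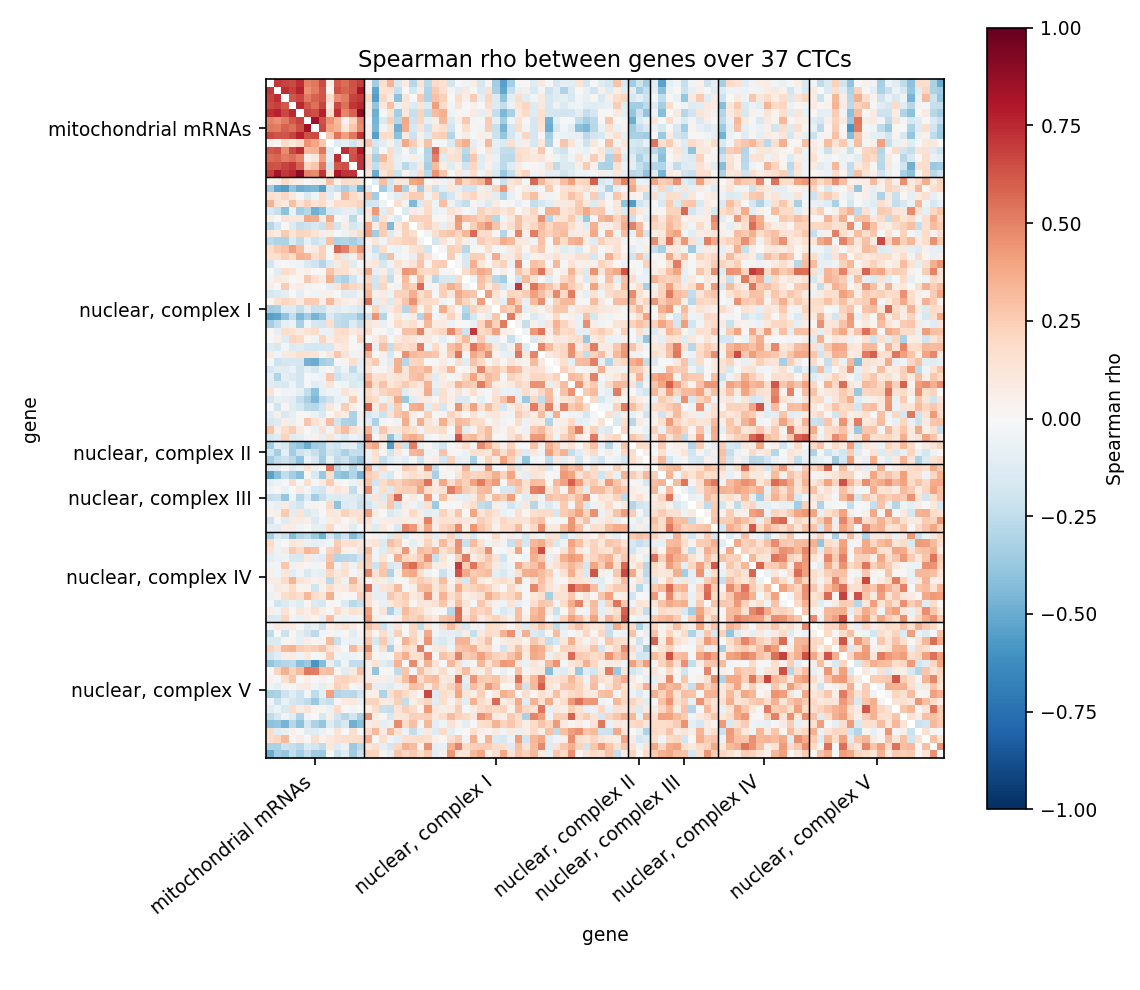
Spearman's ρ for each pair of genes over 37 CTCs, on shares of reads, ordered by genome and complex. The 13 mitochondrial mRNAs form a block with a median of 0.62, nuclear pairs have a median of 0.15, and pairs across genomes one of -0.03.

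MT-CO1, which encodes the catalytic subunit of complex IV, was the exception among mitochondrial mRNAs. Its pairs with the other mRNAs of its own complex, MT-CO2 and MT-CO3, had ρ of -0.13 and -0.1. In culture MT-CO1 was the most abundant mitochondrial mRNA, with a mean of 27.9% of mitochondrial mRNA reads and a range from 21.3% to 37.8%. In all 17 CTCs of mouse 5546 it fell below every cultured cell, with 1.86% as the lowest value, 5.42% as the median and 14.5% as the highest. In mouse 5541 it was 21.8% and 18.9%, and in mouse 5549 it was 6.28%, 20.6%, 18.5% and 7.22%, all 4 below the cultured range. In mouse 5542 the 4 CTCs had 43%, 20.4%, 11.8% and 4.32%, which spans more than the culture. In mouse 5545 the values ran from 5.74% to 35.6% with a median of 22.4%, and 6 of 10 CTCs lay inside the cultured range. Over mice the mean was 15.9% ± 6.63 (SD, n = 5), and without mouse 5546 it was 18.5% ± 3.59 (n = 4). In the authors' normalized values, MT-CO1 had means of 8871 (5541), 7040 (5542), 8295 (5545), 2053 (5546) and 5445 (5549) and 12330 in culture, so that every mouse was lower than culture on that scale. In nuclear CPM, where reads are scaled to the total of nuclear genes only, the means were 11903, 8826, 9602, 3507 and 8156 in the same order against 9534, so that 2 mice were higher, 2 slightly lower and mouse 5546 far lower.

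The low part of MT-CO1 in mouse 5546 went along with reads on nuclear copies, but single CTCs of other mice had it without many such reads. Of 130 rows for such copies, 7 lie in the insertion on chromosome 1 that includes MTCO1P12, and 123 lie elsewhere (other copies). The identity of the other copies to the mitochondrial genome was not measured row by row. The other copies had 28 to 728 reads per CTC in mouse 5546 (median 197), 2 to 35 in the CTCs of the other mice and 0 to 6 in culture. The CTCs of mouse 5546 thus overlapped with the others only at the low end. Over the 17 CTCs of mouse 5546 the part of MT-CO1 and the reads on these other copies had ρ = -0.67. It was -0.34 over the 10 CTCs of mouse 5545 and -0.74 over all 37 CTCs, which also holds the difference between mouse 5546 and the rest. Low parts with few such reads were seen in CTCs 5542-8 (4.32%, 10 reads), 5549-2 (6.28%, 15 reads) and 5545-15 (7.92%, 4 reads). Adding the reads of all MT-CO1 copies back to MT-CO1 changed its mean in mouse 5546 from 5.44% to 5.83%. These copies had 214 reads per CTC against 3616 on MT-CO1 itself. Reads that map to both MT-CO1 and a copy had been left out of both rows, so this sum cannot recover them. Erythroid and leukocyte levels were also high in this mouse (given above). The part of these reads in the MT-CO1 values was not tested.

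MT-ND5 and MT-ND6, the neighbouring complex I genes at the far end of the coding region, split the mice in another way. MT-ND5 made up 4.03% to 5.43% of mitochondrial mRNA reads in culture. It was below every cultured cell in all 10 CTCs of mouse 5545 (0.629% to 2.64%, median 1.00%) and all 17 of mouse 5546 (0.212% to 3.26%, median 1.23%). In mouse 5541 it was 4.19% and 2.99%, in mouse 5542 it was 2.7%, 3.61%, 4.55% and 2.91%, and in mouse 5549 it was 1.51%, 4.63%, 6.32% and 12.5%. Mice 5545 and 5546 thus lay low as a whole, while the 3 mice with few CTCs overlapped the culture. MT-ND6 was below every cultured cell in 7 of 10 and 11 of 17 CTCs of the same mice. Its medians there were 0.13% and 0.11% against 0.37% in culture. It reached 2.32% in CTC 5549-6, the cell with the most erythroid reads. As counting was without strand, the MT-ND6 values may not be separate from those of MT-ND5. The mouse means of MT-ND5 in normalized values were 1590 (5541), 1237 (5542), 471 (5545), 451 (5546) and 2753 (5549) with 2009 in culture.

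Among the remaining mRNAs, MT-CYB, the single mitochondrial gene of complex III, made up 16% ± 0.71 of mitochondrial mRNA reads over mice and 12.7% in culture. MT-ATP6 made up 8.59% ± 0.68 against 6.79% and was above the cultured range in 32 of 37 CTCs. MT-CO3 made up 18.7% ± 4.86 against 15.8%, with the largest parts in mice 5545 and 5546 (21.9% and 25.4%), the mice with the least MT-ND5. MT-CO2 made up 15.5% ± 2.34 against 13%. MT-ND4L made up 0.93% ± 0.34 against 1.33%. MT-ATP8, with 0.503% ± 0.22 against 0.381%, and MT-ND3, with 0.301% ± 0.13 against 0.188%, varied widely between mice for their size. As these are parts of a sum, a fall of MT-CO1 raises the others without any change of their own.

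**Figure D4:**
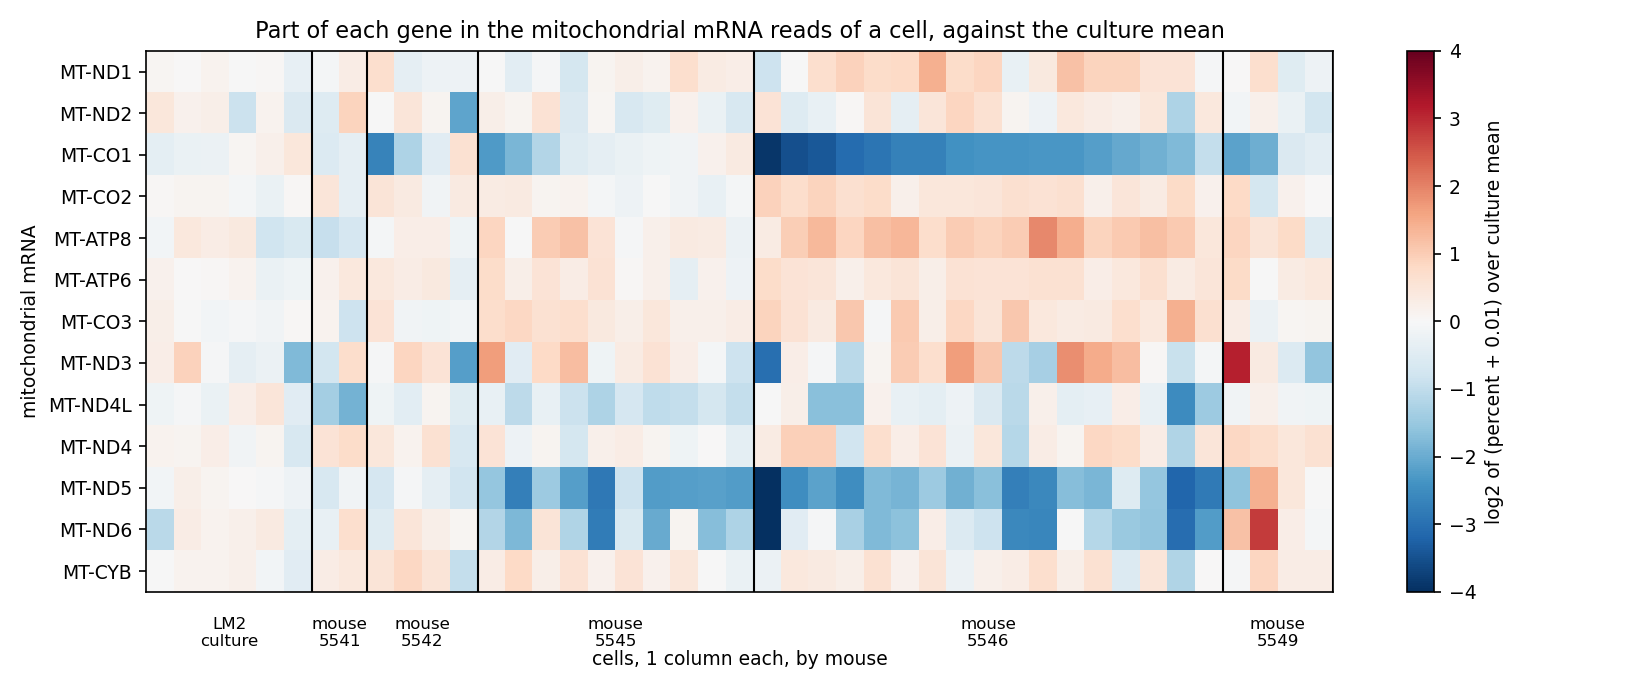
Part of each of 13 mitochondrial mRNAs in the mitochondrial mRNA reads of a cell, as log2 of (percent + 0.01) over the culture mean, with 1 column per cell, grouped by culture and mouse and ordered by MT-CO1 within groups. MT-CO1 is low in all 17 CTCs of mouse 5546, and MT-ND5 is low in all CTCs of mice 5545 and 5546.

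The choice of scale decides the sign of many single-gene differences between CTCs and culture: 4 of 79 nuclear members had a mean log2 ratio above 0 on the authors' scale and 46 in nuclear CPM. The authors divided reads by size factors from DESeq2, and 1 read is worth 1.52 normalized units on average in culture but 0.55 to 0.9 in the mouse means of CTCs. On that scale the median gene had a mean log2 ratio of CTCs to culture of -1.56 over 9164 genes, and in nuclear CPM it had -0.75 over 8943 genes, a shift of 0.81. Mitochondrial mRNAs had a median log2 ratio of 0.08 on the authors' scale and 0.93 in nuclear CPM, and nuclear members had -0.69 and 0.14. Relative to the median of all genes, however, the 2 scales gave nearly the same result. The mitochondrial mRNAs lay 1.64 and 1.69 log2 units above it, and the nuclear members 0.87 and 0.89, with 69 and 68 of 79 above it. Among genes with a mean of at least 100, a level closer to that of the members, the nuclear members still lay 0.83 and 0.80 above the median. These are descriptions, since genes are not replicates.

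A gene was called different when all 5 mouse means lay at least 2-fold from the culture mean in 1 direction, after 1 was added to both, and the larger mean was at least 8. On the authors' scale this rule called 0.262% of all 9164 genes higher and 25.1% lower. Of 79 nuclear members past the minimum, 5 were called lower, among them NDUFS1, NDUFV1, SDHD and ATP5F1A, and 0 higher, and no mitochondrial gene was called in either direction. In nuclear CPM the rule called 0.738% of 8943 genes higher and 7.92% lower, and then 2 nuclear members were higher (COX6B1 and ATP5F1E) and 0 lower, with no mitochondrial gene called. With TMM factors, another scaling, which called 1.92% of 8330 genes higher, 6 mitochondrial mRNAs (MT-ND1, MT-CO2, MT-ATP6, MT-ND3, MT-ND4 and MT-CYB) were called higher together with COX6B1 and ATP5F1E. A share of 5 in 79 lower is well under the background of 25.1%. In edgeR's quasi-likelihood test, the reads of each mouse were added up and set against those of the culture, whose unseen spread was taken to equal that of the mice. There, 0 of 96 members had an adjusted p under 0.05, as did 0% of 13813 genes in either direction. Unadjusted, 11 of the 96 members and 241 of the 13813 genes had a p under 0.05 in edgeR, whereas in limma 1 of the members and 1429 of the genes did, so the unadjusted counts depend on the tool. With 1 culture sample few genes can pass either test.

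Without a size limit, 9 of 13 mitochondrial mRNAs and both rRNAs had all 5 mouse means above culture in nuclear CPM, where 5.26% of all genes did. Their mean log2 ratios ran from 0.82 in MT-ND2 to 1.55 in MT-ND3, with 0.93 in MT-CO2, 0.88 in MT-CO3, 1.08 in MT-ATP6, 1.19 in MT-ND4 and 1.09 in MT-CYB. The other 4 were MT-ND6 (0.79 ± 1.08 SD over mice), MT-ND4L (0.16 ± 0.74), MT-ND5 (-0.12 ± 1.06) and MT-CO1 (-0.29 ± 0.68). On the authors' scale only MT-CYB was higher in all 5 mice (0.23), and MT-CO1 (-1.12) and MT-ND4L (-0.76) were lower in all 5. The mean log2 ratio was above 0 in 8 of 13 mRNAs on the authors' scale and in 11 in nuclear CPM.

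On the authors' scale, 2 of 79 nuclear members had all 5 mouse means above culture and 41 had all 5 below. Of all 9164 genes, 95 and 5526 did. In nuclear CPM, 11 of the 79 had all 5 above, where 5.26% of all genes did, and 10 had all 5 below, where 32% did. Those above were COX6A1 and COX6B1 of complex IV, NDUFA1, NDUFB1 and NDUFC2 of complex I, and ATP5F1E, ATP5MC2, ATP5ME, ATP5MF, ATP5MJ and ATP5PB of complex V. Those below include NDUFS1 and NDUFV1 of complex I, SDHA, SDHC and SDHD of complex II, ATP5F1A, ATP5F1B and ATP5F1C of ATP synthase, and NDUFA8 of complex I.

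COX6B1, a subunit on the outer face of complex IV, had the smallest spread between mice of the 79 nuclear members. Its mean was 602 (5541), 572 (5542), 630 (5545), 660 (5546) and 577 (5549) nuclear CPM, against 203 in culture. All 5 mouse means thus lay close together and far above the culture, with a mean log2 ratio of 1.58 ± 0.09 (SD, n = 5). On the authors' scale the ratio was 0.70 ± 0.15, still higher in all 5 mice but under the 2-fold limit. The cultured cells themselves ran from 97.9 to 428 normalized units, so single cultured cells reached the level of the CTCs (381 to 483 in the mouse means). ATP5F1E, the epsilon subunit in the central stalk of ATP synthase, had means of 1414, 1249, 1645, 1246 and 1214 in the same order of mice and 473 in culture, a log2 ratio of 1.51 ± 0.18, and 0.66 ± 0.28 on the authors' scale. COX6A1, of the same complex as COX6B1, and ATP5ME, of the same complex as ATP5F1E, followed with 0.88 ± 0.55 and 0.88 ± 0.38, and with 0.08 and 0.01 on the authors' scale.

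Complex II, the only complex without a mitochondrially encoded subunit, had the lowest median log2 ratio of the 5 and lay near the median of all genes. Its 4 genes had a median log2 ratio of -0.94 in nuclear CPM and -1.73 on the authors' scale, against -0.75 and -1.56 for all genes. The nuclear members of each other complex had a median above that of all genes on both scales. Together the 4 genes of complex II held 0.04% of reads in CTCs and 0.07% in culture, and 32 of 37 CTCs were below every cultured cell. SDHA, the subunit that binds succinate, had 116 (5541), 32.1 (5542), 45.3 (5545), 65.9 (5546) and 13.5 (5549) nuclear CPM and 130 in culture. Its log2 ratio was -1.56 ± 1.13, and every mouse was lower, but 5541 only slightly. SDHD, a membrane anchor, had 138, 172, 106, 113 and 72.8 against 258, a ratio of -1.15 ± 0.46. SDHB, the iron-sulfur subunit, had -0.68 ± 0.89 and was higher than culture in mouse 5545 (305 against 251). SDHC, the other anchor, had -0.73 ± 0.29.

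In complex I the 7 nuclear core subunits had a median log2 ratio of -0.64 in nuclear CPM, and the 29 accessory subunits one of 0.26, a grouping made after the values were seen and not tested. NDUFS1, the largest core subunit, had the lowest ratio of all members, -1.93 ± 2.03, with means of 0.8 (5541), 29.1 (5542), 19.6 (5545), 65.2 (5546) and 38.8 (5549) against 73.6, and a cultured cell in which it was not detected. Mouse 5541, with 2 CTCs, sets much of that value. NDUFB5, an accessory subunit that is also among the 4 lowest on the authors' scale, had -0.94 ± 0.65 and was above culture in mouse 5545 (162 against 140). NDUFA1 (0.67 ± 0.37) and NDUFS5 (0.31 ± 0.55), the complex I members with the highest level per kilobase of transcript, were at 640 and 595 normalized units per kilobase over mice and 697 and 848 in culture.

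In complex III, CYC1, which carries cytochrome c1, had -0.81 ± 0.77, and UQCRQ, which has no catalytic site, had 0.39 ± 0.55. In complex IV the 12 members past the minimum had a median of 0.45, and its nuclear genes together held 0.507% ± 0.06 of reads in CTCs and 0.382% in culture, with 25 of 37 CTCs above every cultured cell. COX4I1, which makes the common form of a subunit that also exists as COX4I2, had -0.10 ± 0.69, while COX7A2 had 0.14 ± 0.36, COX7B 0.22 ± 0.46, COX8A 0.45 ± 0.50 and NDUFA4 0.63 ± 0.62. Of the alternative isoforms, COX6B2 was detected in 1 of 37 CTCs, and COX4I2, COX6A2, COX7A1, COX7B2 and COX8C were not analysed here. In complex V the catalytic ATP5F1B had 1394 (5541), 3037 (5542), 2986 (5545), 1581 (5546) and 2481 (5549) against 3056 in culture. The mice thus ran from under the culture to close beside it, with a ratio of -0.49 ± 0.52. ATP5MC2, a gene for the rotating c-ring, had 0.48 ± 0.41, and ATP5IF1, the protein inhibitor of ATP synthase, had 0.38 ± 0.96 and was below culture in mouse 5541 only.

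**Figure D5:**
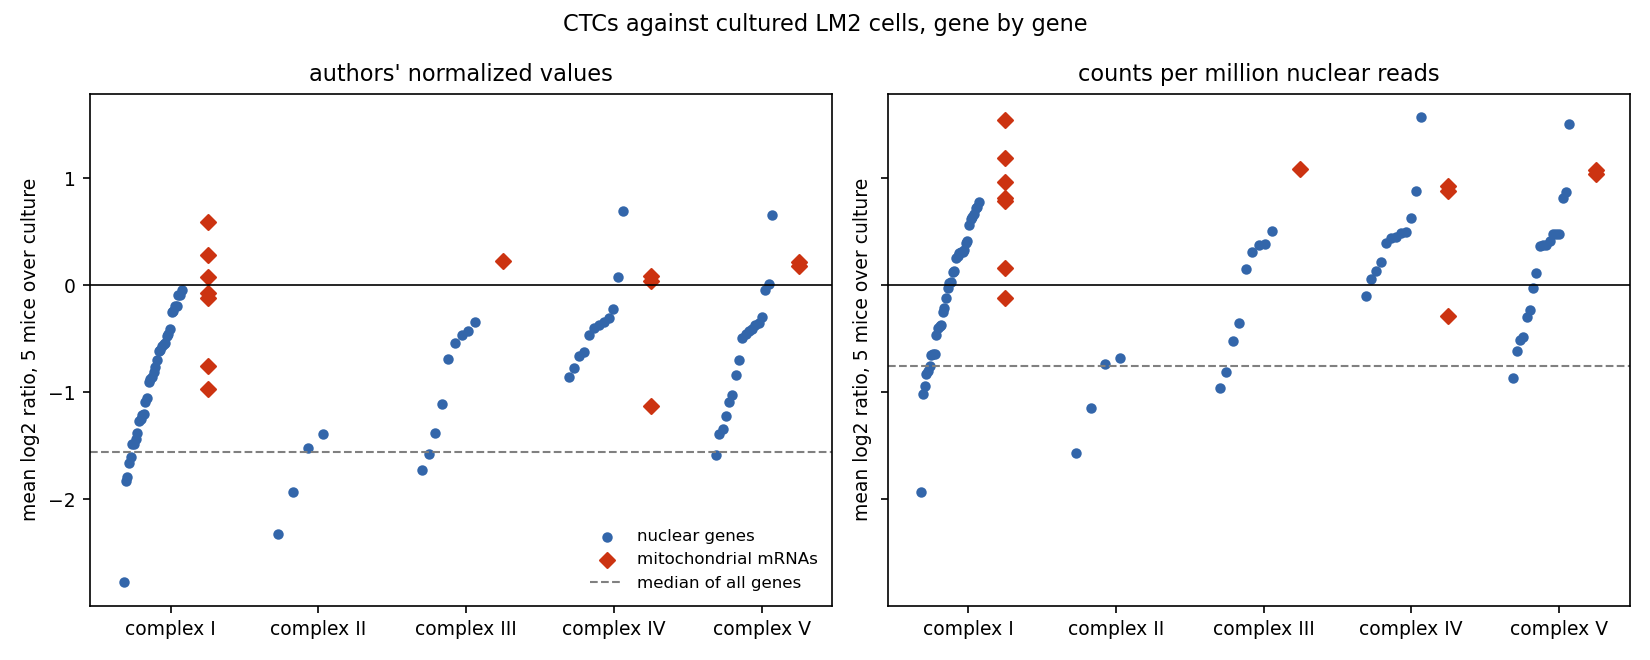
Mean log2 ratio of 5 mouse means to the culture for each member with a mean of at least 8, by complex, on the authors' scale (left) and in nuclear CPM (right), after 1 was added. Circles are nuclear genes, diamonds mitochondrial mRNAs, and the dashed line is the median of all genes (-1.56 and -0.75). The change of scale moves all points up together.

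Transcript length moved with these differences. Over the 79 nuclear members past the minimum, transcript length and log2 ratio in nuclear CPM had ρ = -0.39. The 40 members with the shortest transcripts (median 583 bases) had a median ratio of 0.32, and the 20 with the longest (median 2890 bases) one of -0.33. Of the 11 members above culture in all mice 8 have a transcript under 1000 bases, and of the 10 below 9 have one over 1000 bases. The median transcript of all 79 members has 763 bases, so most of them are under 1000 bases too. The 8 of 11 was not compared with that share and by itself shows no relation to length, whereas the 9 of 10 differ from that majority. Over all 8921 nuclear genes with a length the relation was weak (ρ = -0.04), and over the 1505 with a mean of at least 100 it was -0.19. The part of transcript length in these results was not tested.

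Promoters of nuclear respiratory chain genes are known for sites of the factor NRF1, and its palindromic consensus, in which the sixth base may be any, was looked for on both strands, overlaps included, in the 250 bases before the start in RefSeq. It was found in 14 of 66 members with a promoter in the table (21.2%), in 9.23% of 11990 protein-coding genes and in 5.53% of all 27305 promoters. The promoters of SDHD (chr11:112086623-112086872, plus strand) and COX6B1 (chr19:35648073-35648322, plus strand) are printed as the members called in opposite directions on the 2 scales, with the match to the consensus in capitals.
SDHD: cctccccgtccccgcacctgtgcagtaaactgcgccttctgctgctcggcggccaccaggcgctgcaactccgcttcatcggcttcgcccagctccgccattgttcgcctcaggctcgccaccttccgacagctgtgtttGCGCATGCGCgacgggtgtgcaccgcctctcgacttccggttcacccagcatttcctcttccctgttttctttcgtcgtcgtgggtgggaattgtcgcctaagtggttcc
COX6B1: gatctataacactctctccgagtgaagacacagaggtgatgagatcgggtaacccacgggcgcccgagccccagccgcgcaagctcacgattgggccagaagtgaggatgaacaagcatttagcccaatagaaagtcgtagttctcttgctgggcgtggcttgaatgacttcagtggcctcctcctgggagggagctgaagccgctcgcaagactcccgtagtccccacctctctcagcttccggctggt
SDHD has 1 match and COX6B1 none, and matches were also found in members of both directions, such as SDHA below and ATP5ME above culture.

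Other genes that serve the chain had medians near or below that of all genes. In nuclear CPM, the 47 assembly factors past the minimum had a median log2 ratio of -0.80 with 0 called higher and 4 lower (ATPAF1, BCS1L, COA7 and NUBPL), and the 77 mitochondrial ribosomal proteins had -0.78 with 4 lower, shares near the 7.92% of all genes called lower. Both medians lie near that of all genes (-0.75). The 29 genes for expression of mitochondrial DNA and handling of its RNA had -1.43 with 5 lower, among them the mitochondrial poly(A) polymerase MTPAP (24.5 ± 11.2 against 148) and ELAC2, which cuts tRNAs out of the precursor (40.1 ± 22.5 against 155). The 18 genes of the tricarboxylic acid cycle had -1.33 with 3 lower, FH (45.3 ± 19.9 against 272), PDHX and SUCLA2. Of 6 regulators of mitochondrial biogenesis past the minimum, 1 was lower, GABPB1 (7.77 ± 3.3 against 61.1), a subunit of the NRF2/GABP factor. The coactivators PPARGC1A and PPARGC1B were detected in 1 and 2 of 37 CTCs and in 1 and 2 of 6 cultured cells. Both were under the minimum mean of 8 in both groups. The 82 cytosolic ribosomal proteins had a median of 0.53 with none called, which is above that of the nuclear respiratory chain genes. On the authors' scale the medians ran from -2.15 for the expression of mitochondrial DNA to -0.28 for the cytosolic ribosomal proteins.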

How the data were processed

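Single cells were lysed and reverse transcribed with oligo-dT primers (SMARTseq2, full-length, without molecular identifiers), so counts are reads and not molecules. Per the labels and the methods, the authors aligned reads with STAR to GRCh38, counted uniquely mapped reads per gene with GENCODE 38 without strand, left out CTCs with low unique mapping or a high mitochondrial share, and deposited a signal of reads divided by DESeq2 size factors. Whole reads were recovered from the low values of each column (100% of values whole within 0.001), and shares of reads were computed from them. Symbols and positions came from GENCODE 44 (25684 of 25739 rows matched, 55 did not). Cells were averaged per mouse (5 mice, 37 CTCs) and set against 1 culture (6 cells). A gene was called when each mouse mean lay 2-fold or more from the culture mean in 1 direction, after a pseudocount of 1, with the larger mean at least 8. The other scale was nuclear CPM, reads scaled to the total of nuclear genes. Genes were named by a rule: all mitochondrial mRNAs and rRNAs, the 2 nuclear members of each complex with the highest level per kilobase, the isoform pairs of complex IV, NDUFA4, ATP5IF1, and the 4 nuclear members with the highest and the 4 with the lowest log2 ratio. Genes outside the rule (NDUFV1, SDHC, ATP5F1A and those listed only by count) were named after their values were seen. The values of 1 member are not reported here. Reads summed per mouse were tested with edgeR 4.0.16 and, as alternatives, limma 3.58.1 and DESeq2 size factors. On simulated data the rule of size recovered 131 of 200 genes changed 4-fold, with 503 false calls among 8298 genes. Single calls by the rule can therefore be false. At 4-fold edgeR recovered 0 of 200 with the spread between mice and 198 with a low spread, with 0 and 11 false calls. Nuclear copies were found with blastn 2.17.0, and windows of 75 bases are a choice made here, since the read length is not given in the sources used here. Promoters are from RefSeq (GRCh38.p14). The members and lists were chosen with earlier results of these data known. The libraries hold 469614 to 2041333 reads on genes, and 4 of 41 labelled CTCs were not analysed here. The CTCs of a mouse came from its whole blood, taken once, and the labels do not say whether the cultured cells came from separate cultures, so the spread between cultured cells may be technical.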

Additional observations from a re-analysis of the deposited data

Results flagged for a closer look

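Of 72 groups of 4 to 10 values examined, 8 had a highest or lowest value that stood apart from the rest of its group, where chance gives about 1 in 20. In culture, cell LM-2 was high in the share of mitochondrial mRNA (4.0762%) and in the ratio of mitochondrial mRNA to nuclear reads (1.9766), and cell LM-10 was high in the nuclear share (2.2896%). In mouse 5545, CTC 5545-10 was high in the mitochondrial rRNA share (4.4976%), and CTC 5545-1 was high in the part of MT-ND5 (2.6355% of mitochondrial mRNA reads). Among the 5 mouse means in normalized values, MT-ND3 was high in mouse 5549 (256.6845) and NDUFB5 was high in mouse 5545 (126.6805). The mean of COX6B2 was above 0 only in mouse 5546 (0.0245), and with every other mean at 0 it had to stand apart. Several groups also share cells and reads, so the 8 of 72 cannot be read against 1 in 20. In rows outside the comparisons, nuclear copies of mitochondrial genes away from the chromosome 1 insertion had a mean of 227.2941 reads per CTC in mouse 5546. This was above the 0 to 6 reads per cultured cell.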

How the results depend on the processing

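The higher mitochondrial share kept its direction under every alternative run, with a log2 ratio of 0.79 and values of 0.67 to 0.88 when a mouse or a cultured cell was left out. The nuclear share (0.10) stayed within the spread between mice. The correlation of the genomes moved from 0.01 to 0.20 without CTCs of more than 1000 erythroid CPM. Counts of called members depended on the scale: the 5 lower members became 0 at 4-fold, in nuclear CPM (also with a minimum mean of 100) and with TMM factors. They were also 0 in edgeR, limma, edgeR with DESeq2 factors and edgeR without a filter, but with 1 culture sample these tests could pass few genes, so this says nothing about stability. Higher members went from 0 to 2 in nuclear CPM (also with a minimum mean of 100) and to 8 with TMM factors, of which 6 are mitochondrial mRNAs and where 1.92% of all genes were higher. Leaving out a mouse or a cultured cell gave 2 to 10 lower members of 79 and 0 higher, where 0.249% to 0.5% of all genes were higher. Without mouse 5545 there were 10 lower, where 29.3% of all genes were lower. Without culture cell 1 there were 2 lower, where 21.6% of all genes were lower. Over all genes, 2298 were lower on the authors' scale, 708 in nuclear CPM, 267 with TMM factors and 487 at 4-fold. No paired analysis was possible because replicate numbers only name cells within a mouse or the culture and no test was run on cells. A single culture and few CTCs in mice 5541, 5542 and 5549 limit every comparison.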

Other observations

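In mouse 5546, whose libraries carry the letters c (9 CTCs) and s (8 CTCs), the median mitochondrial share was 6.77% and 8.28%, and the median part of MT-CO1 was 5.42% and 4.91%. The low part of MT-CO1 was thus found in both sets of libraries.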
